A study of Mus musculus with 66 samples.

Results

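The comparison described here is that of the cerebellum of calorie-restricted (CR) mice at about 6 months with that of CR mice at about 24 months, on a filter of 8448 cDNA probes. Its members were chosen by diet and age in the labels: all CR mice of 174 to 194 days on one side and all CR mice of 673 days or more on the other. That gave 9 young mice (4 males of 186, 193, 194 and 177 days and 5 females of 193, 194, 180, 174 and 190 days) and 7 old mice (3 males, all of 673 days, and 4 females of 736, 712, 714 and 703 days), or 16 of the 66 mice of the series. A further old female of 743 days was left out because its array had a median correlation of only 0.8197 with the others. The 3 old males were younger than every old female, so that sex and age within the old group cannot be told apart. Males and females entered each age difference with equal weight.

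All mice were C57BL/6, from one colony, and were housed individually. CR mice received regular feed freely until 13 weeks of age, then fortified feed at 90% for 1 week and 75% for 1 week, and 60% from then until sacrifice. The same series holds ad libitum (AL) mice, which ate regular feed freely. Of these, 19 at 6 and 24 months are used below beside the CR mice, as are 8 CR mice of about 16 months. The young AL mice were 5 males of 174 to 194 days and 5 females of 169 to 194 days. The old ones were 4 males of 719 to 743 days and 5 females of 704 to 733 days. The 16-month CR mice were 4 males of 474 to 495 days and 4 females of 485 to 499 days. AL mice of 476 to 499 days and AL juveniles of 17 to 44 days entered only the choice of tested probes and the estimate of spread. Total RNA of each mouse was radiolabeled and hybridized to its own filter. Values are Z scores: 0 is the mean of the probes of an array and 1 unit is the SD of those probes, so a Z score ranks a transcript within its own array and a difference in Z units cannot be converted to a fold change.

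The cerebellum coordinates movement and balance. Its cortex holds very many small granule neurons, the Purkinje cells that carry its output, inhibitory interneurons and the Bergmann glia that ensheath Purkinje dendrites. Caloric restriction extends lifespan in rodents, and the pathways it is best known for include insulin and mTOR signaling, mitochondrial metabolism, protein quality control, antioxidant defense and inflammation.

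The filter tested these cells only in part. It carried 0 probes from the marker list of granule neurons and 0 from that of oligodendrocytes and myelin. Of the 6 Purkinje probes, Car8, a carbonic anhydrase-related protein of Purkinje cells, was in the 79.3 percentile of all probes, while the 4 probes annotated to the calcium-binding protein Calb1 ranged from the 25.3 to the 65.7 percentile, 3 of them bright enough to be tested. The hindbrain and spinal cord patterning genes Hoxb3 and Hoxc9, which mature cerebellum is not known for, stood in the 89.3 and 90.5 percentiles. Mean Z scores of different probes annotated to the same gene correlated by only 0.114 over 561 genes. Each gene name below therefore stands for the probe as annotated, and in tissue RNA fewer cells of a type and less RNA per cell cannot be told apart.

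The 16 arrays were alike: their pairwise correlations ran from 0.9346 to 0.9884, with a median of 0.9696. Of the probes, 4106 had a mean Z score above 0 over the 63 sound arrays of the series and were tested. None of them differed between 6 and 24 months under CR at a Benjamini-Hochberg adjusted p under 0.05 in limma (0 of 4106, or 0%, with a smallest adjusted p of 1). At an unadjusted p under 0.05 there were 11 probes (0.268%), 3 of them higher (0.0731%) and 8 lower (0.195%) at 24 months. Evenly spread p-values would put a share of 0.05 under this threshold, so the p-values here ran high. Why they did was not tested. Neither the low count nor the adjusted p is therefore evidence that nothing changed. There were also 0 probes for which all 7 old mice lay above, or all 7 below, the 9 young mice. The adjusted count stayed at 0 without each mouse in turn. The unadjusted count fell to 4 without the young male of 186 days or the third old male, and to 5 without the second old male or the old female of 703 days. It went up to 20 without the old female of 736 days, 21 without that of 714 days, 28 without the young male of 177 days, 38 without the first old male and 40 without the young female of 190 days.

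The differences were small as well as short of the threshold. The median size over the 4106 probes was 0.0319 Z units, and 90% of them by rank lay between -0.089 and 0.0881. The lowest difference was -0.276 and the highest 0.232, and 2 probes differed by more than 0.25. The 95% interval of a probe was typically its difference ± 0.164. For 3252 probes (79.2%) that interval lay wholly within ± 0.25, and for 4096 (99.8%) within ± 0.5. Of all tested probes, 2342 were higher and 1764 lower at 24 months, with a median difference of 0.00758.

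The genes with the smallest unadjusted p are described next, none of which passed the adjusted threshold. Among those higher at 24 months the first was Dcxr, an NADPH-dependent reductase of dicarbonyls and L-xylulose. At 6 months its Z scores were 0.30, 0.46, 0.40 and 0.58 in the males and 0.43, 0.54, 0.39, 0.53 and 0.53 in the females. At 24 months they were 0.55, 0.57 and 0.71 in the males and 0.64, 0.56, 0.47 and 0.63 in the females. Thus 3 of the 7 old mice lay above every young mouse, and the remaining old mice overlapped with the young. The difference was 0.133 ± 0.0505 (SE, limma unadjusted p = 0.011, 95% interval 0.0317 to 0.234). CR mice of 16 months were at 0.486 ± 0.0607 (SD, n = 8), between the young mean of 0.462 and the old mean of 0.59.

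Mlx encodes the partner of the glucose-responsive transcription factors MondoA and ChREBP. Its Z scores at 6 months were 0.12, 0.27, 0.12 and 0.08 in males and 0.24, 0.26, 0.27, 0.27 and -0.40 in females, and at 24 months 0.23, 0.61 and 0.42 in males and 0.35, 0.26, 0.16 and 0.20 in females. The ages overlapped in both sexes, and the young female of 190 days was far below the rest. The difference was 0.194 ± 0.0914 (SE, limma unadjusted p = 0.0388) with all mice and 0.128 without that female.

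Efna5 encodes ephrin-A5, a membrane-bound ligand of Eph receptors that guides axons. Its Z scores at 6 months were 0.03, 0.04, -0.07 and 0.12 in males and 0.13, -0.12, 0.08, 0.20 and 0.06 in females, against 0.15, 0.17 and 0.27 in old males and 0.27, 0.19, 0.04 and 0.24 in old females. All 3 old males were above all 4 young males, while the females overlapped. The share of all tested probes that so separated the ages in males was not counted, here or for Gdi2 and Srpr below. The difference was 0.141 ± 0.0677 (SE, limma unadjusted p = 0.0421). With all 66 arrays, which adds the left-out old female of 743 days at -1.10, the Efna5 difference was 0.0123. The 16-month CR mice had 0.171 ± 0.114 (SD, n = 8), between the young mean of 0.0522 and the old mean of 0.19.

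The other 7 genes that led in this direction had differences between 0.0801 and 0.185. They were Vars2 (mitochondrial valyl-tRNA synthetase), Arpp19 (an inhibitor of protein phosphatase 2A), Ppm1h (a protein phosphatase), Wrn (the DNA helicase lost in Werner syndrome), Pih1d1 (a subunit of the R2TP co-chaperone complex), Kat2b (a histone acetyltransferase) and Ccdc102a. The young female of 190 days was the lowest mouse for Arpp19 (-0.61), Pih1d1 (-0.76) and Kat2b (-0.34). Without it the difference dropped from 0.144 to 0.0746 for Arpp19, from 0.185 to 0.0838 for Pih1d1 and from 0.143 to 0.0629 for Kat2b. Wrn was unlike these in that its 7 old mice were close together, at 0.20 to 0.28, within the 0.00 to 0.29 of the young. Its difference was 0.0801 ± 0.0494 (SE, limma unadjusted p = 0.11).

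**Figure D1:**
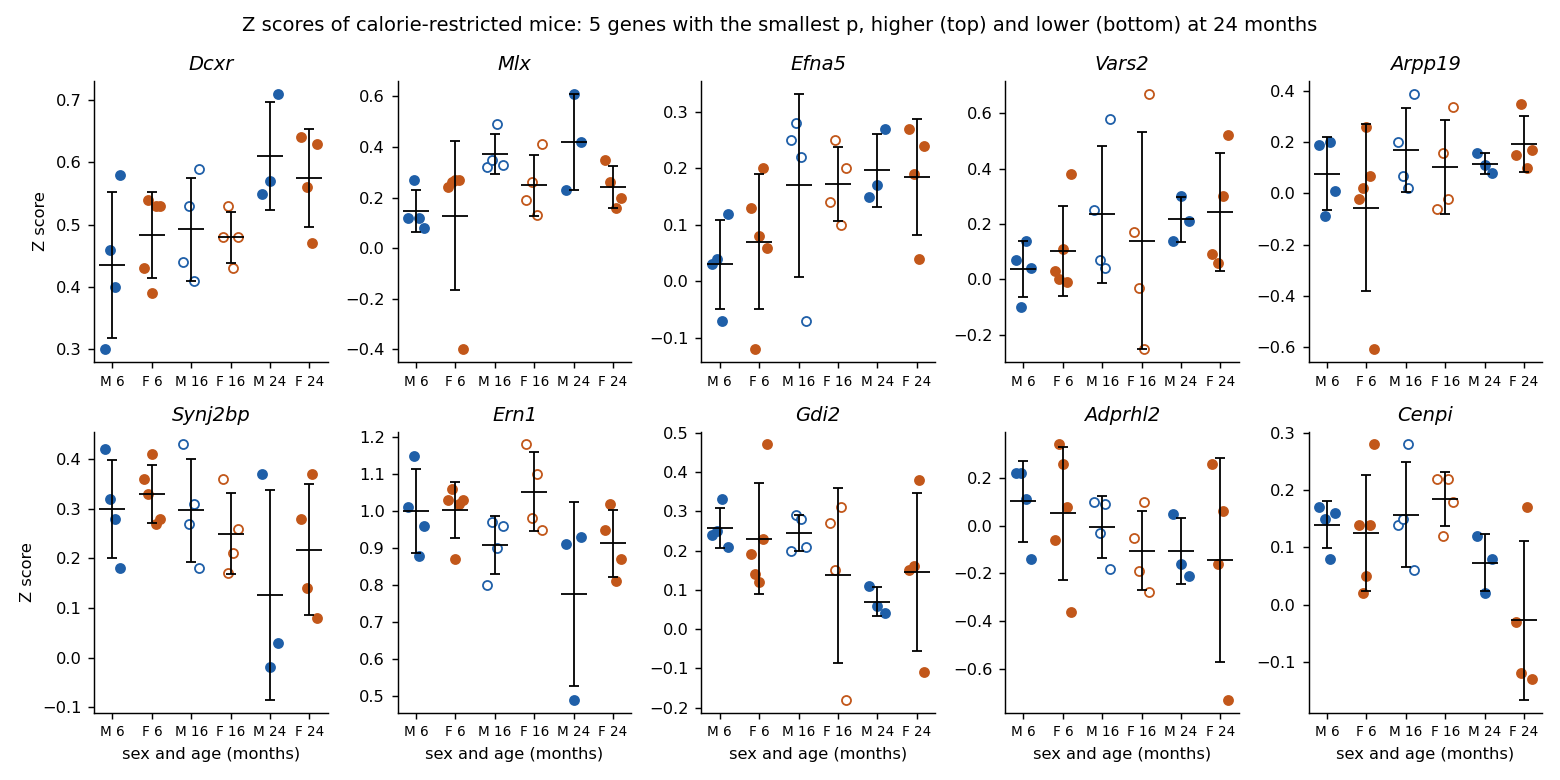
Z scores (vertical axis, each panel with its own scale) of single CR mice by sex (M, blue; F, orange) and age in months, for the 5 genes with the smallest p among those higher (top row) and lower (bottom row) at 24 months. Open points are the 16-month mice, and black bars are the mean ± SD of a group. Over both sexes the ages overlap in every panel, and the single low young female is seen for Mlx at -0.40 and Arpp19 at -0.61.

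Among the genes lower at 24 months the first was Synj2bp, a PDZ protein of the mitochondrial outer membrane. At 6 months its Z scores were 0.42, 0.32, 0.28 and 0.18 in males and 0.36, 0.33, 0.41, 0.27 and 0.28 in females. At 24 months they were 0.37, -0.02 and 0.03 in males and 0.28, 0.14, 0.37 and 0.08 in females. Of the old mice, 4 were below every young mouse and the other 3 lay in the young range. The difference was -0.143 ± 0.06 (SE, limma unadjusted p = 0.0206).

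Ern1 encodes IRE1, a sensor of unfolded protein in the endoplasmic reticulum. Its Z scores were 1.01, 1.15, 0.88 and 0.96 in young males and 1.03, 1.06, 0.87, 1.02 and 1.03 in young females, against 0.91, 0.49 and 0.93 in old males and 0.95, 1.02, 0.81 and 0.87 in old females. One old male, at 0.49, was far below all other mice. The difference was -0.156 ± 0.0684 (SE, limma unadjusted p = 0.026), and -0.0848 without that male.

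Gdi2 retrieves Rab GTPases from membranes. Its Z scores were 0.24, 0.25, 0.33 and 0.21 in young males and 0.19, 0.14, 0.12, 0.23 and 0.47 in young females, and 0.11, 0.06 and 0.04 in old males and 0.15, 0.16, 0.38 and -0.11 in old females. Every old male was below every young male, but the females overlapped widely. The difference was -0.136 ± 0.0662 (SE, limma unadjusted p = 0.0444).

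Adprhl2, which removes ADP-ribose from proteins, and Cenpi, a kinetochore protein, were the last named genes at an unadjusted p under 0.05. Adprhl2 ranged from -0.36 to 0.34 in young and from -0.73 to 0.26 in old mice, and its difference of -0.202 became -0.104 without the old female of 703 days, the lowest of all. Cenpi ranged from 0.02 to 0.28 in young and from -0.13 to 0.17 in old mice, with a difference of -0.11 ± 0.0544 (SE, limma unadjusted p = 0.0479). For Cenpi the 16-month CR mice stood at 0.171 ± 0.0688 (SD, n = 8), above the young mean of 0.132.

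The remaining 5 genes in this direction had differences between -0.167 and -0.0891. They were Ing5 (a subunit of histone acetyltransferase complexes), Zfp593, Ctsa (the lysosomal carboxypeptidase cathepsin A), Zfp846 and Bora (an activator of mitotic kinases). For Zfp593 the difference went from -0.109 to -0.0653 without the old female of 703 days. The array numbers of the series fall into 5 runs, each with at most 1 mouse of a group, which allow 7 comparisons of an old with a young CR mouse of the same sex and run. Synj2bp, Ern1, Adprhl2, Cenpi, Zfp593 and Ctsa were lower in the old mouse in 6 of these 7 pairs, Gdi2, Zfp846 and Bora in 5 and Ing5 in 4. Dcxr, Efna5, Vars2, Arpp19 and Ppm1h were higher in 6 of 7, Mlx and Pih1d1 in 5, and Wrn, Kat2b and Ccdc102a in 4. Of all tested probes, 2.31% were lower and 2.36% higher in at least 6 pairs. These genes were chosen for a small p on the same mice, so their pair counts are a description.

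The thresholds that the study used were looser. They asked for a mean Z score above 0 over both ages, a Z-ratio of at least 1.5 in size (the difference divided by the SD of all such differences, here 0.07831) and an unadjusted p under 0.05. The p used here was that of limma fitted to all 8448 probes on the 63 arrays, not that of the study's own test. Its later analysis of variance was not applied. With these settings 9 of 8448 probes met the thresholds (0.107%), 4 higher (0.0473%) and 5 lower (0.0592%). The higher probes were Mlx, Efna5, Dcxr and Bnip3l, a mitophagy receptor, and the lower ones Synj2bp, Gdi2, Ern1 and 2 probes with no gene symbol. Bnip3l, named here only because it met these thresholds, had the highest Z-ratio, 3.13. Its value came from 1 mouse: an old male had 1.20, while the other 6 old mice lay between -0.07 and 0.20 and the 9 young mice between -0.22 and 0.19. The count of 9 became 3 without the young male of 186 days or the third old male and 4 without the second old male. It became 14 without the old female of 736 days, 17 without that of 714 days, 22 without the young male of 177 days, 25 without the first old male and 39 without the young female of 190 days.

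**Figure D2:**
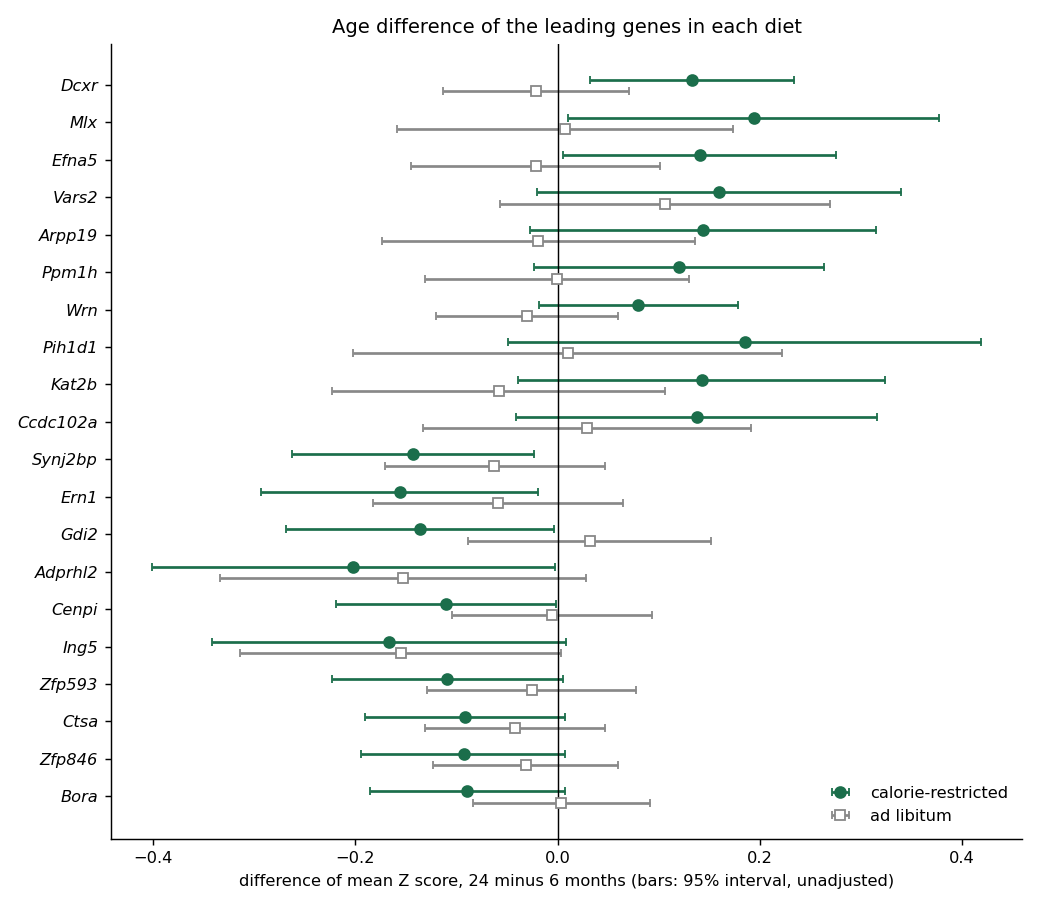
Difference of the mean Z score, 24 minus 6 months (horizontal axis, Z units, sexes weighted equally), of the 20 leading genes in CR mice (filled green circles) and in AL mice (open gray squares), with unadjusted 95% intervals. The genes were chosen by their small p under CR, so that the distance of the green points from 0 is a consequence of the choice. Dcxr was at 0.133 under CR and -0.0213 under AL.

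The gene lists were next read member by member. None of their probes was called, and 0% of all probes were. The largest list was that of cytosolic ribosomal proteins, with 97 probes on the filter, of which 44 passed the filter on low values. Of these, 12 were higher and 32 lower at 24 months, with a median difference of -0.0166. Over all tested probes the median was 0.00758, and over the 2189 tested probes with 1 gene symbol, from which all lists were drawn, 1120 were higher and 1069 lower, with a median of 0.00125. The list median was -0.0175 in females and -0.0271 in males, and 0.00025 in AL mice. It stayed below 0 without each mouse in turn (-0.0355 to -0.0104), with 26 to 36 of the 44 probes lower. Over the same settings and the other alternatives on the tested probes, the medians of 8 of 31 lists kept their sign and the other 23 did not. The larger of the 8 were ribosome (44 tested probes), chaperones (19), glycolysis and citrate cycle (8) and Notch signaling (5). The smaller were lipid synthesis (4), aminoacyl-tRNA synthetases (3), brain stem (3) and interneurons (2, with 1 higher and 1 lower). These settings share most of their mice, so a kept sign is a description. No setting among these took the sexes apart. In females the medians of chaperones (0.0055), glycolysis and citrate cycle (0.0195) and Notch signaling (0.0005) had the opposite sign. So did those of lipid synthesis (-0.0375) and brain stem (-0.0095), while ribosome, aminoacyl-tRNA synthetases and interneurons kept theirs.

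Single ribosomal members were far from called. The brightest, Rpl8 of the large subunit, had 1.69 ± 0.0831 (SD, n = 9) at 6 and 1.71 ± 0.102 (SD, n = 7) at 24 months. The lowest difference of the list belonged to a probe of Rps6, a small subunit protein phosphorylated downstream of mTOR, at -0.162 ± 0.101 (SE, limma unadjusted p = 0.116), where 1 old mouse was at -0.79. The other 3 tested probes annotated to Rps6 had -0.0114, -0.0516 and 0.00358. Rpl10 had 3 tested probes at -0.113, -0.0963 and -0.126, all 3 of them also lower in AL mice (-0.106, -0.164 and -0.169). Rps6 and Rpl10 were chosen after their values were seen. The place on the filter moved with these values: of the 44 probes, 14 lay in the last 2 of 8 equal runs of probe numbers, where the list median was -0.0515 and that of all probes -0.012, and the other 30 had a median of -0.00983 where all probes had 0.015. The part of place in this result was not tested.

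Protein quality control lists are given next. Of the 19 tested chaperone probes, 5 were higher and 14 lower, with a median of -0.0204. Without each mouse in turn that median was -0.0348 to -0.004. It was -0.0475 in males but 0.0055 in females, and 0.0123 in AL mice. By place on the filter it was -0.0297 over the 6 probes in the last 2 of the equal runs of probe numbers. Over the other 13 probes it was -0.0075, where all probes had 0.015 there and -0.012 in the last 2 runs. The part of sex or place in the chaperone median was not tested. Hspa8, the constitutive cytosolic HSP70 and the brightest member, stood at 2.23 ± 0.121 (SD, n = 9) in young and 2.32 ± 0.0789 (SD, n = 7) in old mice, a difference of 0.0832, while a dimmer Hspa8 probe differed by -0.0367. The list was drawn by symbol and also holds Hspg2, the matrix proteoglycan perlecan, at -0.0204. Of the 12 tested proteasome probes, 3 were higher and 9 lower, with a median of -0.0114, but that median turned to 0.0184 without the old female of 736 days and to 0.0185 with weights for array quality. The brightest of these, Psmc3ip, is a recombination factor named for binding a proteasome subunit, and it stood at 1.97 and 2.00 in young and old mice. The 32 ubiquitin enzyme probes were split evenly, 16 higher and 16 lower, with a median of 0.00167.

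None of the energy metabolism probes passed the test. The 20 tested oxidative phosphorylation probes were 11 higher and 9 lower with a median of 0.00508, which was -0.0268 without the young male of 193 days. Atp5md, a small subunit of ATP synthase and the brightest of them, was at 2.23 ± 0.0938 (SD, n = 9) and 2.26 ± 0.123 (SD, n = 7), a difference of 0.0124, and a dimmer Atp5md probe differed by -0.0578. In glycolysis and the citrate cycle 2 of 8 probes were higher and 6 lower, with a median of -0.0205. The lowest of them was Pdhb, of the pyruvate dehydrogenase complex, at -0.0827 ± 0.0648 (SE, limma unadjusted p = 0.208). Among nutrient sensors, Rptor of mTOR complex 1 differed by -0.00325 and Prkaa1, the catalytic subunit of AMP-activated kinase, by 0.00925, and the 8 tested probes of that list were 4 higher and 4 lower. In lipid and sterol synthesis 3 of 4 probes were higher (median 0.0232).

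Antioxidant defense was 9 higher and 7 lower of 16 tested probes (median 0.00221), with the cytosolic peroxiredoxin Prdx2 at 1.60 ± 0.14 (SD, n = 9) and 1.63 ± 0.109 (SD, n = 7). Lysosome and autophagy had 8 higher and 4 lower of 12, with a median of 0.0222, which was 0.00208 without the young male of 193 days and -0.027 with the left-out old female of 743 days added, and its cholesterol carrier Npc2 differed by 0.0588. Translation factors were 12 higher and 9 lower of 21 (median 0.0125, or -0.0233 without the young male of 193 days) and the mitochondrial ribosome 5 higher and 4 lower of 9 (median 0.000167). All 3 tested aminoacyl-tRNA synthetase probes, Vars2, Tars and Rars2, were higher, with a median of 0.0394. The 7 probes of glucocorticoid and circadian response genes, among them Fkbp5 and Sgk1, all had mean Z scores of 0 or less and were not tested.

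Nuclear and signaling lists had medians on both sides of 0. Splicing factors were 18 higher and 12 lower of 30 (median 0.00696), chromatin modifiers 16 and 14 of 30 (0.0035), DNA repair and telomere genes 8 and 7 of 15 (0.012) and Wnt signaling 6 and 4 of 10 (0.0161). Notch signaling had 1 higher and 4 lower of 5 (median -0.0369), and its lowest member, the fringe glycosyltransferase Mfng, was at -0.105, with 1 old female at 0.13 and the other old females at 0.65 to 0.74. Synaptic vesicle genes were 5 higher and 3 lower of 8 (0.00667), the voltage-gated channel list 3 and 5 of 8 (-0.015) and the glutamate and GABA receptor list 0 and 2 of 2 (-0.00958). Both lists were drawn by symbol. The channel list also holds the noncoding RNA Kcnq1ot1 and channels that are not voltage-gated, such as Kcnj12, Kcnk1 and Kcnn2. The receptor list held Gabra3 and Grina, and Grina is not itself a receptor subunit. Immune and interferon genes were 10 higher and 8 lower of 18, with a median of 0.000583, and the class I antigen gene H2-K1 differed by 0.0489 ± 0.0904 (SE).

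**Figure D3:**
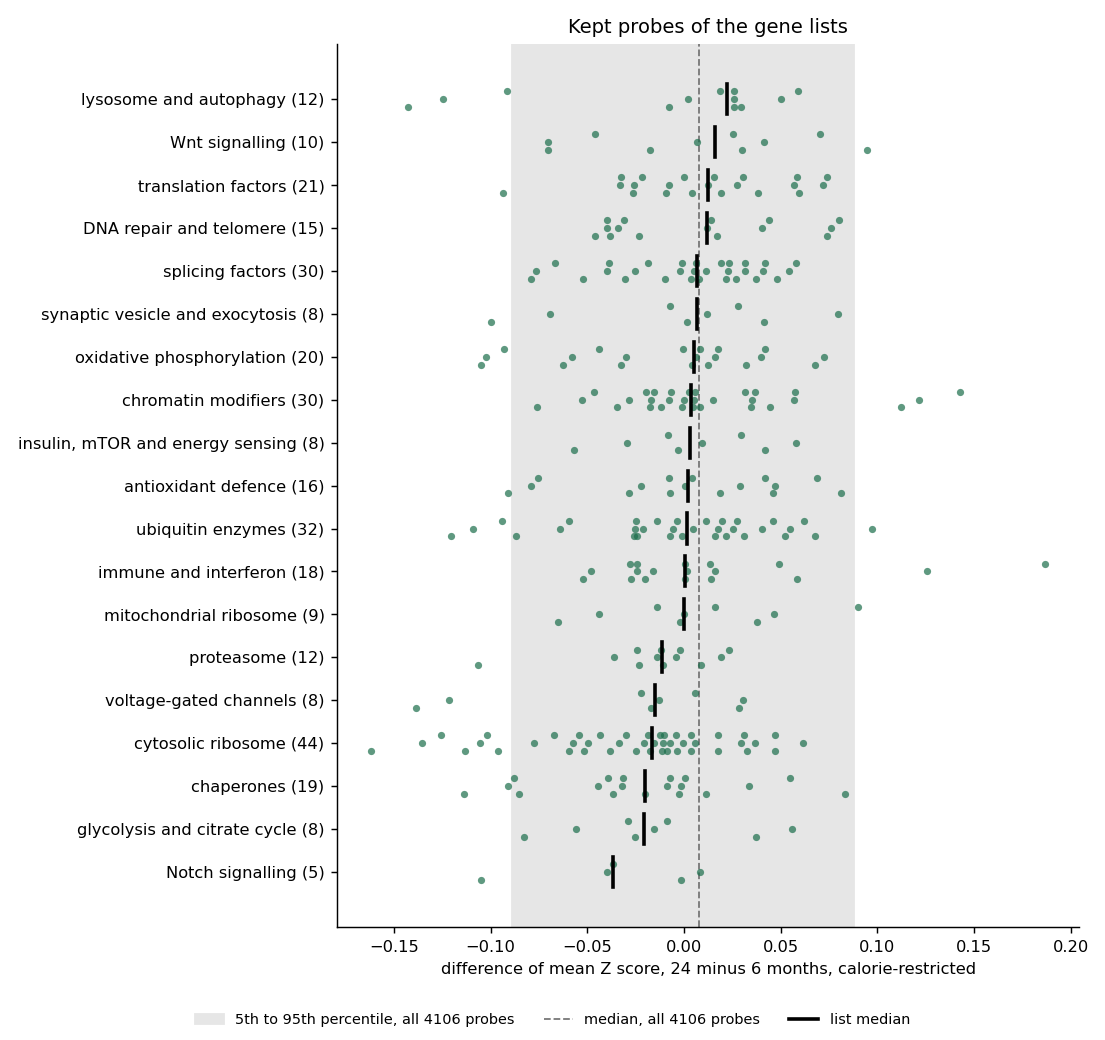
Difference of the mean Z score, 24 minus 6 months under CR (horizontal axis, Z units), of each tested probe (green points) of the pathway lists with 5 or more tested probes (vertical axis, number in parentheses). Black bars are list medians, the dashed line is the median of all 4106 tested probes and the gray band their 5th to 95th percentile. All list medians shown lie between -0.0369 and 0.0222. The band is that of single probes, and a median over several probes varies less, so the band is no measure for the medians.

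Cell type markers bear on what the tissue samples held. The Purkinje marker Car8 was at 0.857 ± 0.134 (SD, n = 9) in young and 0.897 ± 0.0885 (SD, n = 7) in old mice, and the brightest Calb1 probe at 0.372 and 0.383. The other tested Calb1 probes were lower in old mice, by -0.043 and by -0.271 ± 0.165 (SE, limma unadjusted p = 0.106), the latter from 0.0478 to -0.236 with 1 old mouse at -1.02. The 4 tested Purkinje probes were thus 2 higher and 2 lower, with a median of -0.0161. Of astrocytes and Bergmann glia, the intermediate filament Vim was at 1.07 in both ages, the gap junction protein Gja1 differed by 0.00167 and the glutamate transporter Slc1a3 by 0.0568. The microglial complement genes C1qb and C1qc differed by -0.0159 and -0.0241, and Fcer1g by 0.076, each with an SE of at least 0.0612. Summed Z scores of the 3 microglial probes ran from 1.71 to 2.76 in young and from 1.89 to 2.76 in old mice.

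Of the 4 brain stem probes on the filter 3 passed the filter on low values, with sums of 2.60 to 3.01 in young and 2.21 to 3.09 in old mice. The 9 meningeal probes were 5 higher and 4 lower (median 0.006, sums 7.94 to 9.63 and 8.14 to 9.72), and the transporter Slc6a13, the brightest of them, was at 2.19 and 2.25. Of 23 blood cell probes the 6 tested were all annotated to hemoglobin alpha, with 2 higher and 4 lower and a median of -0.03, and their sums ran from 2.62 to 4.47 in young and from 2.37 to 3.60 in old mice. The choroid plexus list had only 1 probe on the filter, of Calml4, and the forebrain list 2, of Ppp1r1b and Emx2. Their mean Z scores were -0.721, -0.488 and -0.209, and they were not tested. So few probes say little about tissue of either kind in the samples.

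A list of genes named by the study held 10 genes on the filter, of which 5 passed the filter on low values. It does not hold every such gene: Txnip, Parp1 and Gsk3b, also named by the study, are on the filter but outside it. The study named the listed genes from its data on several CNS regions, which include these samples, and Vim from a comparison of cerebral cortex. They are therefore not taken as independent evidence of a direction. Apart from Wrn (0.0801), the tested genes of the list were Terf1, which binds telomeric repeats, at 0.0742 ± 0.0751 (SE), and Hsp90aa1 at -0.00142. The others were Vim at -0.00642 and the HSP90 co-chaperone Ptges3 at -0.091 ± 0.0568 (SE). Terf1 was 1.55, 1.77, 1.53 and 1.60 in young males and 1.49, 1.62, 1.66, 1.67 and 1.66 in young females, and 1.73, 1.68 and 1.73 in old males and 1.60, 1.57, 1.62 and 1.88 in old females. Its ages overlapped in both sexes.

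Neither sex alone gave a called probe in the equally weighted arrays. In females 0 of 4106 were called (10 at an unadjusted p under 0.05, 0.244%) and in males 0 (18, 0.438%). With weights for array quality 35 probes were called in males and 7 for the sex difference. The typical 95% interval was the difference ± 0.217 in females and ± 0.247 in males. The age differences of the sexes ran loosely against each other over the 4106 probes, with a Pearson r of -0.135 and a Spearman rho of -0.182, and 1772 probes (43.2%) had the same sign in both. These coefficients are over probes, which are not independent and share their arrays within each sex, and they are given as a description.

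The direct test of the difference between the sexes called 0 probes as well, with 26 at an unadjusted p under 0.05 (0.633%). The smallest p among named genes belonged to Sptbn1, the beta spectrin of the membrane skeleton. It was 0.21, -0.01, 0.26 and 0.01 in young males and 0.24, 0.40 and 0.41 in old males, but 0.40, 0.38, 0.18, 0.26 and 0.29 in young females and 0.23, 0.11, 0.21 and 0.01 in old females. Thus 2 of the 3 old males were above all young males and 2 of the 4 old females below all young females, and the female minus male difference was -0.395 ± 0.14 (SE, limma unadjusted p = 0.00688). Srpr, the receptor of the signal recognition particle, was -0.07, -0.12, -0.13 and -0.03 in young males and 0.08, 0.21 and 0.40 in old males, without overlap. Its females overlapped, from -0.05 to 0.15 in young and from -0.15 to 0.11 in old mice, and the sex difference was -0.397 ± 0.159 (SE, limma unadjusted p = 0.0156).

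Tmbim4, a membrane protein of the Bax inhibitor family, and Rrm2b, a p53-induced subunit of ribonucleotide reductase, showed the same pattern at -0.319 and -0.351. Nsmce2, a SUMO ligase of the SMC5/6 complex, had the opposite sign, 0.302 ± 0.132 (SE, limma unadjusted p = 0.0265), from a difference of 0.176 in females and -0.126 in males. Its young females were at 0.26, -0.23, 0.17, 0.05 and 0.22 and its old females at 0.21, 0.26, 0.34 and 0.27. Its young males were at 0.24, 0.20, 0.24 and 0.21 and its old males at 0.22, 0.01 and 0.06, so that the ages overlapped in both sexes. Place on the filter moved with the sex difference: 14 of the 26 probes lay in the first and 5 in the second of the 8 equal runs of probe numbers, and 7 in the last. The median male difference was 0.0283 in the first run and -0.0517 in the last, and the median female difference -0.0155 and 0.0243. The part of place in the sex difference was not tested.

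**Figure D4:**
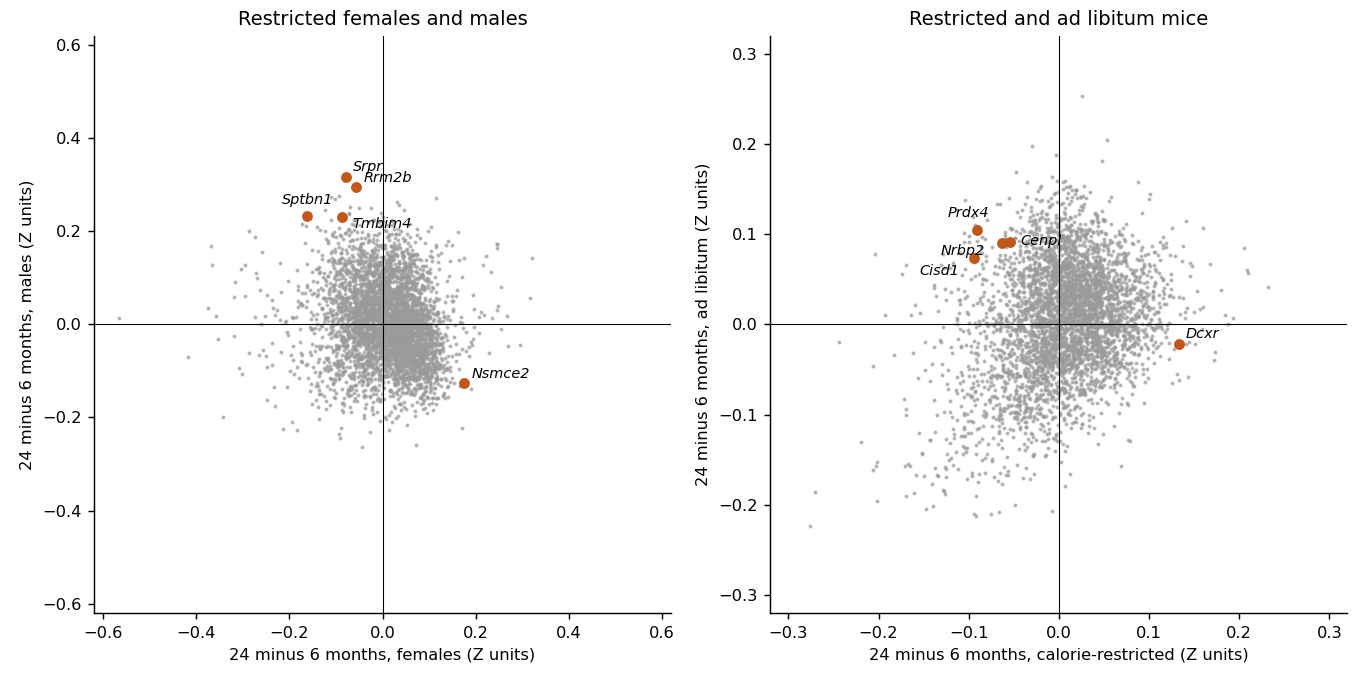
Age difference (24 minus 6 months, Z units) of each of the 4106 tested probes, in CR females (horizontal) against CR males (vertical) on the left, and in CR (horizontal) against AL mice (vertical) on the right, on a narrower scale. Orange points are the 5 named genes with the smallest unadjusted p for the difference between the sexes (left) and between the diets (right). In the equally weighted arrays none of them passed the adjusted threshold. With array weights Srpr passed it for the sex difference.

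The last comparison asked whether the change from 6 to 24 months differed between the diets. The old CR males were all of 673 days and the old AL males of 719 to 743 days. In males diet and age at sacrifice therefore cannot be told apart here. Again 0 of 4106 probes were called, with 7 (0.17%) under 0.05 before adjustment. Within AL mice there were 0 called probes as well, and 54 (1.32%) below 0.05 before adjustment, with a typical 95% interval of ± 0.149. The CR and AL differences shared no array. Over probes their Pearson r was 0.274 and Spearman rho 0.205, and 2426 probes (59.1%) had the same sign, which is again a description over probes that are not independent.

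Of the named genes with the smallest p for the diet difference, Dcxr has been given above: its CR difference was 0.133 and its AL difference -0.0213 ± 0.0458 (SE), a diet difference of 0.154 ± 0.0682 (SE, limma unadjusted p = 0.0277). Prdx4, the peroxiredoxin of the endoplasmic reticulum, ranged under CR from 0.61 to 0.99 with a median of 0.72 in young mice and from 0.54 to 0.79 with a median of 0.65 in old mice. Under AL its means went the other way, from 0.68 and 0.66 in young males and females to 0.85 and 0.70 in old ones, and the diet difference was -0.196 ± 0.0714 (SE, limma unadjusted p = 0.0081). A brighter Prdx4 probe differed by 0.000417 under CR and 0.0253 under AL. Cisd1, an iron-sulfur protein of the mitochondrial outer membrane, had a CR difference of -0.0942 and an AL difference of 0.0732, Cenpl, a kinetochore protein, -0.0544 and 0.0917, and Nrbp2, a pseudokinase, -0.0629 and 0.0907. Under CR, Cisd1 was lower in the old mouse in 6 of the 7 pairs of the same sex and array run, Nrbp2 and Prdx4 in 5, Cenpl in 4 and Dcxr in 1.

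The spread between mice was also compared. The SD within sex and age had a median over probes of 0.116 in old and 0.14 in young CR mice, an old minus young value of -0.0239. Exchanging mice between the ages separately for males and females, in all 4410 possible ways, gave an exact two-sided permutation p of 0.153. Without the old female of 736 days the value was -0.0392, with an exact permutation p of 0.0347, and without the young female of 190 days it was -0.00691, with an exact permutation p of 0.66.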

How the data were processed

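Z scores of 66 arrays, 1 mouse each, were used as the authors deposited them: exposed filters were scanned, spot values were extracted with ArrayPro and each array was transformed to Z scores. The sources used here give neither a log step nor a background correction before it. The deposited score has no counts or depth behind it, so the number of arrays limits the precision. Groups came from the sex, age and diet in the labels.

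Arrays numbered 21, 22 and 26, with median correlations under 0.9, were left out. Kept for testing were 4106 of 8448 probes, those whose Z scores averaged more than 0 on the remaining 63 arrays. A linear model with 1 mean for each of 16 groups was fitted by limma (version 3.58.1, R 4.3.3, empirical Bayes, 47 residual degrees of freedom), two-sided, with Benjamini-Hochberg adjustment over the kept probes and a threshold of 0.05. The study made no such adjustment, and its later analysis of variance was not repeated. Lists, permutations and plots were made in Python 3.11.15 with pandas 2.3.3, NumPy 2.4.6 and matplotlib 3.10.9. The model was tested on simulated data with independent noise, equal in size on all arrays. Quality weights of the compared arrays ran from 0.3341 to 3.591, so that simulation does not cover the noise of these data.

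Gene names came from the platform annotation: 4875 probes had 1 symbol, 224 several and 3349 none, and only the first were named. Named were, in each direction, the 10 probes of smallest p where fewer than 12 were called. Also named were the 5 of smallest p for the sex and diet differences and the tested members of a list of genes named by the study. The 3 brightest tested members of each of the other lists were named as well. The members and lists were chosen with earlier results of these data known. No genome build is named for the filter, so no coordinates are given. Alternatives were another set of arrays, array run as a block, quantile normalization, a correction for position within runs of 22 probe numbers, other filters, array weights, a z test, and leaving out each mouse.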

Additional observations from a re-analysis of the deposited data

Results flagged for a closer look

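For each named gene the groups of 4 or 5 CR mice were searched for 1 mouse far from the others of its sex and age, by Dixon's test. Of 351 groups tested, 26 held such a mouse, and chance flags about 1 in 20. The young female of 190 days stood apart for 5 genes: Mlx at -0.40 (the others 0.24 to 0.27), Pih1d1 at -0.76 (0.22 to 0.27), Rpl8 at 1.84, Lamp1, a lysosomal membrane protein, at 1.63 and a probe of the hemoglobin gene Hba-a1 at 0.66. Other young females stood apart for Ern1 (0.87), Terf1 (1.49), Rars2 (1.05), the potassium channel gene Kcnj12 (1.01) and a Calb1 probe (0.50).

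The young male of 193 days stood apart for the heme-regulated kinase Eif2ak1 (1.43), the complex I subunit Ndufa12 (1.40), the complex III subunit Uqcr11 (1.41) and the splicing factor Hnrnph1 (1.68), each below the other young males. Other young males stood apart for the initiation factor Eif1a (1.82) and the protease Mbtps1 (1.28), which activates sterol regulatory proteins.

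Among old females, that of 703 days stood apart for Terf1 (1.88), the NEDD8-activating enzyme Uba3 (1.78), Mfng (0.13) and the histone demethylase Kdm7a (2.12). That of 712 days stood apart for Bora (0.66), Cenpl (0.70) and the same Calb1 probe (0.69). That of 736 days stood apart for the sorting receptor Sorcs3 (-0.12) and the endothelial marker Cd34 (1.61), and that of 714 days for another Hba-a1 probe (0.36, where the others were 0.30 to 0.31). The 3 old males were too few for the test.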

How the results depend on the processing

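The adjusted count for CR mice at 6 against 24 months was 0 in each alternative run, and so was that for females and for the diet difference. With array weights, 35 probes were called in males (30 higher, 5 lower) and 7 for the sex difference (0 higher, 7 lower). Among the 30 higher were Srpr, Rrm2b, Mlx and Dcxr, described above. Srpr was also among the 7 for the sex difference. The lower 5 were Ptges3, G6pc3, Bcl2l1 and 2 unnamed probes. Of the 35, 14 lay in the first of the 8 runs of probe numbers. These weights were largest, 3.591 and 3.139, for 2 of the 3 old males, and the cause of the added calls was not tested. Counts under the study's thresholds were 16 with all 66 arrays, 21 with the old female of 743 days added to the 63 (an alternative chosen after seeing the data), 14 with position correction, 85 with array weights and 19 with a z test, against 9. Without 1 mouse in turn they ran from 3 to 39, and the old minus young spread from -0.0392 to -0.00691. Counts at an unadjusted p under 0.05 without 1 mouse were 4 to 40 for CR, 2 to 53 for females, 4 to 68 for males, 5 to 71 for the sex and 4 to 15 for the diet difference. With array weights they were 233 for CR, 293 for females, 849 for males, 969 for the sex and 254 for the diet difference. With all probes and no filter the CR count was 91, and with all 66 arrays the female count was 276 and the sex difference count 164. With only the 16 arrays of the comparison the counts were 17 for CR, 25 for females, 61 for males and 79 for the sex difference. The 20 leading genes kept their sign in all 498 alternative values, which follows in part from their choice by small p on the same arrays, but 12 of them lost size by over 1.5 times in at least 1 alternative. The 97 other named probes changed sign in 327 of 2425. The labels carry no replicate numbers by which to pair mice. With array run as a block 0 probes were called in each comparison, with 18 for CR at an unadjusted p under 0.05. Differences under 0.164 Z units lay within the typical interval.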
